A study of Homo sapiens with 6 samples.

Results

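The 10 genes described here belong to the JAK-STAT pathway and its feedback: SOCS1, SOCS2, SOCS3, SOCS6 and CISH among the inhibitors, the transcription factors STAT3, STAT5A and STAT5B, and the kinases JAK1 and JAK2. They were taken by symbol from the gene expression matrix, and all 10 were found among its 17039 genes. SOCS2 was about 13-fold higher in 231BR cells, a brain-seeking variant of the human triple-negative breast cancer line MDA-MB-231, than in MDA-MB-231 itself. STAT5A was about 5-fold higher in 231BR and STAT5B was modestly higher, while JAK1 was lower, SOCS3 was slightly lower and STAT3 differed by less than the spread between libraries.

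The series holds 3 poly(A) RNA-seq libraries of 231BR and 3 of MDA-MB-231, given as FPKM, a fragment count scaled to the length of the transcript and to the mapped fragments of the library. Both lines were grown in culture, 231BR with 200 µg/mL of the selection drug G418 and MDA-MB-231 with no G418 named, so that line and drug cannot be told apart. The 231BR cells came as a gift and the parental cells from a cell bank, and the titles name 1 line for each group. The cell line label disagrees with the titles, in that the number in the name goes up with the replicate number in both groups, so groups were taken from the titles. The sources do not say whether the 3 libraries of a line came from separate cultures, so the p-values measure only the spread between these libraries, which may be technical.

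The lowest Pearson's r across genes between libraries of the same line rounded to 0.997, and the highest between libraries of different lines to 0.902. Genes are not independent replicates, and the read depth is unknown because no counts were used. All 4 markers listed for MDA-MB-231 were well expressed in both lines but not equally. VIM had means of 2553 FPKM in 231BR and 2306 in MDA-MB-231, and EGFR 91.2 and 33.3, while CD44 had 181 and 251 and LGALS1 488 and 988. The hormone receptor genes ESR1 and PGR had means under 1 FPKM in both lines, with ESR1 at 1.08 in 1 library of 231BR. ERBB2 had means of 9.88 and 4.95 FPKM. Of 16 listed markers of blood, endothelial, fibroblast and brain cells, 13 were in the file and 11 of these had means under 1 FPKM in both lines. The other 2 were CD68, a macrophage marker, at 82.9 and 63.5 FPKM, and MBP, a myelin gene, at 21.0 and 13.6 FPKM, both called higher in 231BR. The sum of the 11 low markers was 1.40 to 1.44 FPKM in 231BR and 1.09 to 1.23 in MDA-MB-231. The part of any of these markers in the results was not tested.

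Cytokine and hormone receptors of this pathway have no kinase of their own and carry JAK kinases, which phosphorylate the receptor and then STAT proteins when a ligand binds. Phosphorylated STATs pair, enter the nucleus and switch on target genes, and SOCS genes and CISH are among these targets. SOCS proteins then bind the receptor or the kinase through an SH2 domain and, through a SOCS box, recruit a ubiquitin ligase, which closes a negative feedback loop. RNA levels do not show whether a JAK or STAT was phosphorylated.

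The promoter of CISH is a textbook example of a STAT5 target, and its sequence is shown for that reason. The motif TTCNNNGAA, which reads the same on both strands, was searched in the 250 bases before each annotated transcript start of the members, using RefSeq sequences of GRCh38.p14. Windows were matched for 9 members, with SOCS2 the one not matched. CISH was the only one of the 9 with a match and had 4, at 241, 230, 129 and 112 bases before its start. The motif was present in 6.57% of all 35116 RefSeq windows of this length, and 5 windows, or 0.0142%, had 4 or more matches. Counted by gene, 8.09% of all genes with a window and 7.87% of tested genes had a match in any window. The matches lie on the minus strand in 2 runs, the first from chr3:50611991-50612020 and the second from chr3:50611876-50611905, written 5′ to 3′ with the motif in capitals.
CISH distal pair: ccgttTTCCTGGAAagTTCTTGGAAatctg
CISH proximal pair: ggTTCTAGGAAgacgctgcTTCCGGGAAgg
A match is a run of letters and not a measured binding site, and no match says only that these letters are not in that window.

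The genes were tested together with all others in 1 limma fit on log2(FPKM + 0.1), so that every fold change below is on this scale and understates the change of low genes. A gene was called higher or lower in 231BR at an adjusted p under 0.05, with the Benjamini-Hochberg adjustment over 13465 genes. Of the 10 members, 4 were called higher, 3 lower and 3 neither. Among all genes tested 44.4% were called higher and 32.9% lower, 77.3% in either direction, so the share of members called is close to that of genes at large. For 7 members every library of one line lay above every library of the other, 4 higher in 231BR and 3 lower, against 78.4% of all tested genes, 44.9% higher and 33.5% lower. SOCS2 and STAT5A, 2 of the 10 members, were called with log2 fold changes above 1. Of all tested genes, 15.2% were called with an absolute log2 fold change above 1 and 10.9% were called and higher by that much. With so few members this count does not set them apart from genes at large. The median log2 fold change was -0.05 over the members and 0.08 over all genes tested. SOCS2 is also in a list of changed genes that the study drew from these same libraries, so its difference is given as a description with no p-value and is not independent evidence in these counts.

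**Figure D1:**
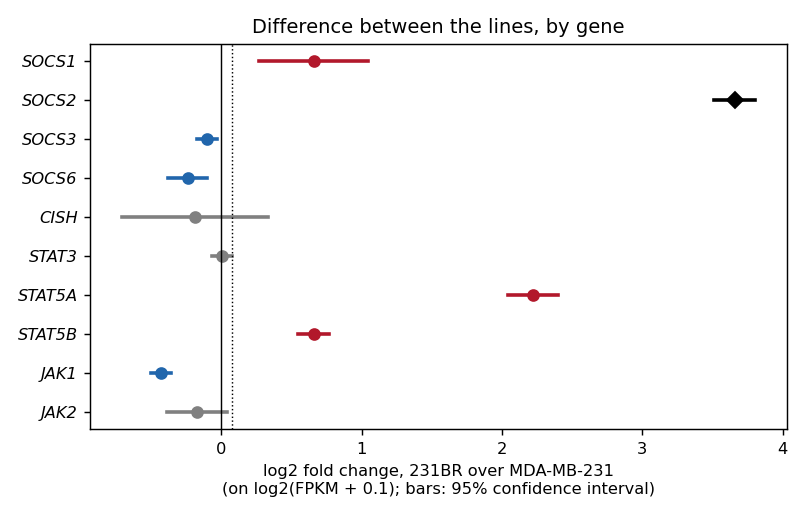
Log2 fold change of the 10 members, 231BR against MDA-MB-231, on the log2(FPKM + 0.1) scale, with bars for the 95% confidence interval from limma with 3 libraries per line and a dotted line at the median of all genes tested. Red is called higher, blue called lower, grey neither, and the black diamond is SOCS2, given as a description. SOCS2 at 3.66 and STAT5A at 2.22 stand above the other members, which lie between -0.43 and 0.66.

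SOCS2, best known as the inhibitor of growth hormone receptor signalling, lies at chr12:93569814-93583487 on the plus strand (GRCh38, GENCODE 29). Its FPKM was 23.45, 23.33 and 22.31 in the 3 libraries of 231BR and 1.76, 1.57 and 1.88 in those of MDA-MB-231. The lines were far apart, with the lowest 231BR library well above the highest MDA-MB-231 library. The means were 23.0 ± 0.626 and 1.74 ± 0.156 FPKM (SD, n = 3 each), a 13.3-fold ratio and a log2 fold change of 3.66 (95% interval 3.51 to 3.80). This change was larger in size than that of 98.7% of tested genes and ranked at position 132 among the increases. An antisense gene, SOCS2-AS1, overlaps SOCS2 on the opposite strand. It was not found by that symbol in the expression matrix, so its level could not be looked at. Because the library method as described does not mark strand, reads of such a pair cannot be told apart.

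SOCS1, an inhibitor that binds and blocks JAK kinases directly, was low in both lines. It had 1.86, 1.75 and 1.42 FPKM in 231BR and 1.00, 1.35 and 0.78 in MDA-MB-231. The lines did not overlap, but the highest MDA-MB-231 library came close to the lowest 231BR library. The log2 fold change was 0.66 (SE 0.174, limma adjusted p = 0.00586), and the call was lost after quantile normalization at 0.25 (adjusted p = 0.201). SOCS1 overlaps RMI2, a gene of the opposite strand that acts in DNA repair, and RMI2 itself had 9.65 to 10.01 FPKM in 231BR and 3.71 to 5.1 in MDA-MB-231. How far reads of RMI2 enter the value of SOCS1 was not tested.

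SOCS3, the feedback inhibitor of gp130 receptors and a classical STAT3 target, was among the most abundant members in both lines. The 231BR libraries had 17.88, 17.39 and 17.53 FPKM and the MDA-MB-231 libraries 18.55, 18.99 and 19.10. The lines did not overlap, yet the means of 17.6 ± 0.252 and 18.9 ± 0.291 FPKM (SD, n = 3 each) lay close together. The log2 fold change was -0.10 (95% interval -0.17 to -0.03, limma adjusted p = 0.0147). Without 231BR replicate 2 it was -0.09 with an adjusted p of 0.051.

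SOCS6, a member of the family that is better known for acting on receptor tyrosine kinases than on JAKs, was slightly lower in 231BR. Its values were 3.17, 3.01 and 2.99 FPKM in 231BR and 3.74, 3.60 and 3.52 in MDA-MB-231. The lines did not overlap, and the log2 fold change was -0.24 (SE 0.062, limma adjusted p = 0.00557). It was -0.51 after quantile normalization.

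CISH, the family member with the STAT-type motifs shown above, was near the lower limit of the values kept. It had 0.23, 0.29 and 0.18 FPKM in 231BR and 0.28, 0.40 and 0.18 in MDA-MB-231. The lines overlapped fully, and the log2 fold change of -0.19 had a 95% interval of -0.71 to 0.33 (limma adjusted p = 0.478). A change of up to those bounds in either direction could not be seen at this level. CISH overlaps the abundant kinase gene MAPKAPK3 on the opposite strand, which had 25.89 to 26.76 FPKM in 231BR and 39.13 to 40.7 in MDA-MB-231.

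**Figure D2:**
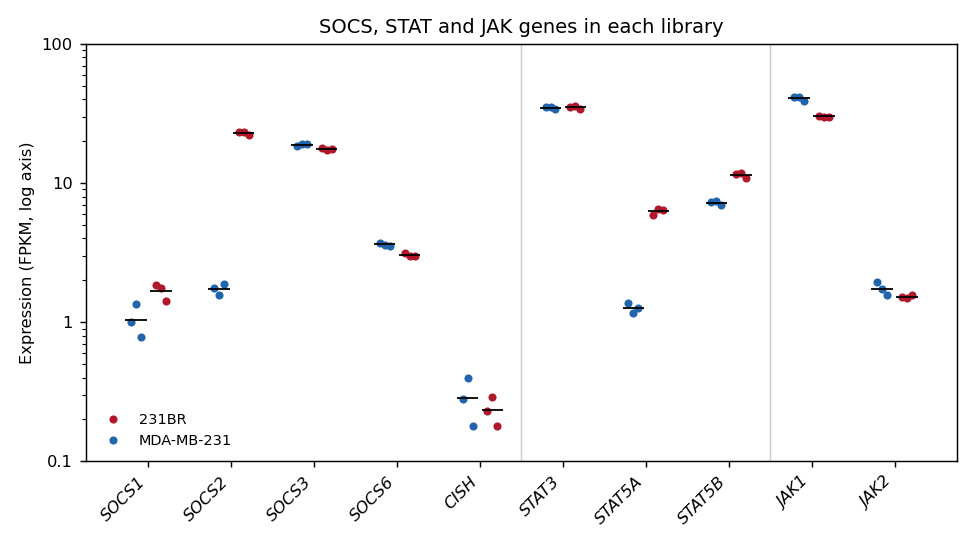
FPKM of each member in each library on a log axis, with 1 point per library and a bar at the mean of each line (n = 3). The points of SOCS2 rise from between 1.57 and 1.88 FPKM in MDA-MB-231 to between 22.31 and 23.45 in 231BR, while those of STAT3 coincide.

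The make-up of the SOCS family differed between the lines, with the largest difference in SOCS2. FPKM is per length, so levels of different genes can be added, and the sum of SOCS1 to SOCS7 and CISH was 72.49, 70.0 and 69.96 FPKM in 231BR and 49.01, 48.45 and 46.98 in MDA-MB-231. Without SOCS2 the sums were 49.04, 46.67 and 47.65 FPKM in 231BR and 47.25, 46.88 and 45.1 in MDA-MB-231, and then the lines overlapped, although single genes were called in both directions: SOCS1, SOCS4 and SOCS7 higher, and SOCS3, SOCS5 and SOCS6 lower. SOCS2 made up 32.3%, 33.3% and 31.9% of the sum in 231BR and 3.59%, 3.24% and 4.0% in MDA-MB-231, a difference of 28.9 percentage points that is a description because SOCS2 was chosen on these libraries. It was the largest share of the 8 genes in 231BR. In MDA-MB-231 the largest was SOCS3, with 39.2 ± 1.40% of the sum there and 24.9 ± 0.196% in 231BR (SD, n = 3 each). SOCS5 took 11.3 ± 0.568% in 231BR and 21.3 ± 0.581% in MDA-MB-231, and SOCS4 took 20.0 ± 0.417% and 21.8 ± 0.517%. The level of SOCS4 itself was higher in 231BR, at 14.1 ± 0.438 against 10.5 ± 0.465 FPKM (log2 fold change 0.42, limma adjusted p = 1.0e-05). Shares of a sum depend on each other, so a higher share of SOCS2 lowers the rest.

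**Figure D3:**
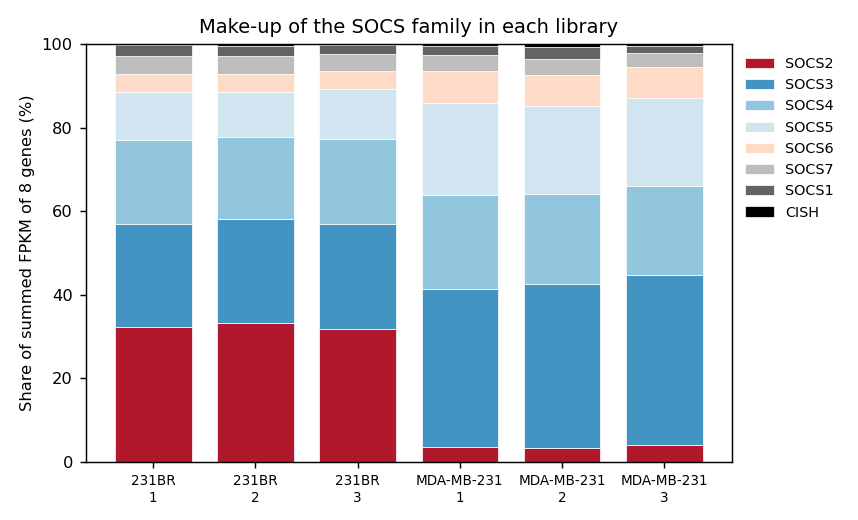
Share of each of the 8 SOCS family genes in their summed FPKM, as a percent per library, stacked for the 3 libraries of each line. SOCS2 fills 31.9% to 33.3% in 231BR and 3.24% to 4.0% in MDA-MB-231.

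STAT5A, a transcription factor activated by prolactin, growth hormone and many cytokines and known for its role in mammary gland development, lies at chr17:42287547-42311943. It had 5.94, 6.50 and 6.45 FPKM in 231BR and 1.38, 1.17 and 1.27 in MDA-MB-231. Each 231BR library was several-fold above each MDA-MB-231 library. The means of 6.30 ± 0.310 and 1.27 ± 0.105 FPKM (SD, n = 3 each) gave a 4.95-fold ratio and a log2 fold change of 2.22 (95% interval 2.05 to 2.40, limma adjusted p = 3.5e-09).

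STAT5B, the close relative of STAT5A with largely shared functions, lies beside it at chr17:42199168-42276707 on the minus strand. It had 11.69, 11.81 and 10.89 FPKM in 231BR and 7.33, 7.41 and 6.93 in MDA-MB-231. The lines did not overlap and the log2 fold change was 0.66 (SE 0.049, limma adjusted p = 6.8e-07), smaller than that of STAT5A. The log2 ratio of STAT5A to STAT5B within a library was -0.98, -0.86 and -0.76 in 231BR and -2.41, -2.66 and -2.45 in MDA-MB-231. STAT5B was the more abundant in every library, by less in 231BR. The difference of 1.64 in this log2 ratio had an exact two-sided permutation p of 0.1, the smallest that 3 against 3 libraries allow. STAT5A and STAT5B are similar in sequence, and reads shared between them could be split between both values. Their summed FPKM was 17.8 ± 0.498 in 231BR and 8.50 ± 0.265 in MDA-MB-231 (SD, n = 3 each).

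STAT3, the transcription factor of the IL-6 family of cytokines, lies next to STAT5A at chr17:42313324-42388568 on the minus strand. Its values were 35.44, 35.69 and 33.97 FPKM in 231BR and 35.40, 35.18 and 34.01 in MDA-MB-231. The lines overlapped, and the log2 fold change of 0.01 had a 95% interval of -0.06 to 0.08 (limma adjusted p = 0.847), which bounds any difference to a small one. The log2 ratio of SOCS3 to STAT3 averaged -0.99 ± 0.042 in 231BR and -0.88 ± 0.050 in MDA-MB-231 (SD, n = 3 each), with an exact two-sided permutation p of 0.1.

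JAK1, the kinase used by gp130, interferon and common gamma chain receptors, lies at chr1:64833229-64966504 on the minus strand. It had 30.53, 29.95 and 29.94 FPKM in 231BR and 41.61, 41.43 and 39.00 in MDA-MB-231. The lines did not overlap, with 231BR at 0.741 times the level of MDA-MB-231 and a log2 fold change of -0.43 (SE 0.032, limma adjusted p = 7.1e-07). RAVER2, a gene of the opposite strand that overlaps JAK1, had 5.13 to 5.18 FPKM in 231BR and 5.74 to 6.44 in MDA-MB-231.

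JAK2, the kinase of the growth hormone, prolactin and erythropoietin receptors, lies at chr9:4984390-5128183. Its values were 1.52, 1.5 and 1.57 FPKM in 231BR and 1.95, 1.72 and 1.56 in MDA-MB-231. The lines overlapped through MDA-MB-231 replicate 3, and the log2 fold change was -0.17 (95% interval -0.39 to 0.04, limma adjusted p = 0.128). It was called lower without that library at -0.25 (adjusted p = 0.0444), after median-of-ratios scaling at -0.23 (adjusted p = 0.0471) and after quantile normalization at -0.55 (adjusted p = 0.000345). The log2 ratio of JAK1 to JAK2 averaged 4.30 ± 0.041 in 231BR and 4.55 ± 0.119 in MDA-MB-231 (SD, n = 3 each), with an exact two-sided permutation p of 0.1.

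By level, the order in 231BR was STAT3, JAK1, SOCS2, SOCS3, STAT5B, STAT5A, SOCS6, SOCS1, JAK2 and CISH from high to low. Neighbours in this order did not overlap except SOCS1 and JAK2. In MDA-MB-231 the order was JAK1, STAT3, SOCS3, STAT5B, SOCS6, JAK2, SOCS2, STAT5A, SOCS1 and CISH, and the libraries overlapped between JAK2 and SOCS2 and between STAT5A and SOCS1. SOCS2 thus moved from the seventh place to the third.

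SOCS2 was not alone on its stretch of chromosome 12. Of the 10 tested genes nearest to it, 5 on each side in RefSeq order, 9 were called higher in 231BR and 1 lower, where 44.4% of all tested genes were called higher, and their median log2 fold change was 0.76. CRADD, an adaptor protein of cell death signalling and the next tested gene on one side, was at 22.9 ± 0.476 FPKM in 231BR and 3.08 ± 0.131 in MDA-MB-231 (SD, n = 3 each). Its log2 fold change was 2.85 (limma adjusted p = 2.4e-11). PLXNC1, a semaphorin receptor beyond CRADD and in a list the study drew from these same libraries, had a log2 fold change of 1.14. The others that were called higher had smaller ones, from 0.29 for TMCC3 to 0.89 for NUDT4, a diphosphoinositol phosphatase. LOC105369914 was the one called lower, at -1.08, with means of 0.120 and 0.347 FPKM. Neighbours on a chromosome are not independent of each other.

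The 10 genes around STAT5A had a median log2 fold change of 0.52, with 7 called higher and 0 lower, against 44.4% and 32.9% of all tested genes, and a largest value of 0.72 for the acetyltransferase gene KAT2A. STAT5A thus exceeded every one of its neighbours, which include STAT5B and STAT3. The median of the 10 neighbours was -0.34 around JAK1, with 7 called lower and 3 higher, where 32.9% and 44.4% of all tested genes were, and a range from -0.87 to 2.08. It lay between -0.22 and 0.61 around the other members.

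**Figure D4:**
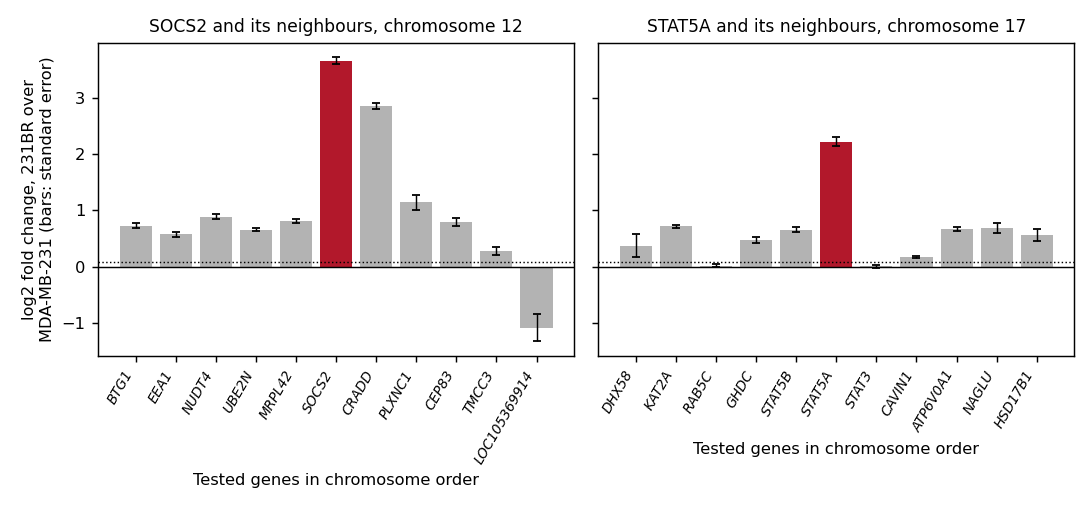
Log2 fold change, 231BR against MDA-MB-231, of SOCS2 (left, red) and STAT5A (right, red) and of the 10 tested genes nearest to each (grey) in chromosome order, with bars for the standard error from limma and a dotted line at the median of all genes tested. The neighbours of SOCS2 range from -1.08 to 2.85 and those of STAT5A from 0.01 to 0.72.

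As a description, the genes whose centred log2(FPKM + 0.1) profile over the 6 libraries lay nearest to that of SOCS2, of 11417 compared, were RTL5, MCTP2 and IL18, at Euclidean distances of 0.076, 0.110 and 0.116. IL18, a cytokine of the IL-1 family, was at 75.2 ± 1.43 FPKM in 231BR and 6.07 ± 0.342 in MDA-MB-231, and RTL5 at 5.57 ± 0.107 and 0.363 ± 0.040 (SD, n = 3 each). With 2 groups of libraries that each agree closely, such a likeness says mainly that the fold change on this scale is similar, at 3.62 for RTL5, 3.60 for MCTP2 and 3.61 for IL18. MCTP2 was at 1.51 ± 0.075 and 0.033 ± 0.012 FPKM, below the pseudocount of 0.1 in MDA-MB-231, so its place depends on that pseudocount.

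The rest of the pathway was described by lists of receptors, ligands, kinases, regulators and targets, 107 genes in all, of which 72 could be tested. Of these, 24 were called higher and 38 lower, where 44.4% and 32.9% of all tested genes were. With an absolute log2 fold change above 1 there were 8 higher and 12 lower, against 1467 and 584 among all 13465 genes tested, and with a pseudocount of 1 the 20 genes became 9. Over the 72 genes the median log2 fold change was -0.21 against 0.08 over all genes tested.

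Among the other JAKs and STATs, 2 of 4 tested were called higher and 1 lower, against 44.4% and 32.9% of all tested genes. Their median log2 fold change was 0.16. TYK2, the JAK of interferon and IL-12 type receptors, was at 26.1 ± 0.785 FPKM in 231BR and 12.6 ± 0.575 in MDA-MB-231 (SD, n = 3 each), and changed by 1.04 on the log2 scale (limma adjusted p = 8.3e-09). STAT6, the transcription factor of IL-4 signalling, was lower at 21.4 ± 0.287 against 26.7 ± 0.686 FPKM (log2 fold change -0.31). STAT2 had a log2 fold change of 0.26, and its call was lost after quantile normalization at 0.09 (adjusted p = 0.142). JAK1 and TYK2 thus moved in opposite directions.

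Of the other negative regulators, 4 of 11 tested were called higher and 4 lower, against 44.4% and 32.9% of all tested genes. Their median was -0.03. PIAS2, a SUMO ligase that can restrain STATs, was at 9.57 ± 0.415 FPKM in 231BR and 4.53 ± 0.059 in MDA-MB-231 (log2 fold change 1.06, limma adjusted p = 2.4e-08). PIAS1, of the same family, was lower at a log2 fold change of -0.44. SOCS7 was higher at 0.73 and SOCS5 lower at -0.35.

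Of the 5 partners that a SOCS box recruits, 2 were called higher, 2 lower and 1 neither. Among all tested genes 44.4% were called higher and 32.9% lower. The median of the partners was 0.06, with none past a log2 fold change of 1. CUL5, the cullin scaffold, was at 19.3 ± 0.565 FPKM in 231BR and 13.1 ± 0.295 in MDA-MB-231 (log2 fold change 0.56, limma adjusted p = 2.9e-07), and the RING protein gene RNF7 was higher by 0.25. ELOC, the elongin that contacts the SOCS box, was lower at -0.43, and RBX1 was lower at -0.18. ELOB had a log2 fold change of 0.06 (limma adjusted p = 0.453).

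The list of STAT5-type receptors was set by family, as homodimeric, common gamma chain and common beta chain receptors, and not by measured use of STAT5. These receptors gave 3 higher and 6 lower calls among 11 tested, against 44.4% and 32.9% of all tested genes. Their median was -0.45. CSF2RA, the alpha chain of the GM-CSF receptor, was at 2.06 ± 0.167 FPKM in 231BR and 0.583 ± 0.095 in MDA-MB-231 (log2 fold change 1.67, limma adjusted p = 7.0e-07), and EPOR, the erythropoietin receptor, was higher at 1.10. IL7R was lower, with 2.16 ± 0.113 against 5.18 ± 0.151 FPKM and a log2 fold change of -1.23, and IL4R was lower at -0.84. GHR, the growth hormone receptor on which SOCS2 acts, was under 1 FPKM in every library and is named after its values were seen. It was counted as the third receptor called higher, but it passed the filter on mean FPKM only through its 231BR libraries. Such a gene can only come out higher, so no p-value is given. Its fitted increase of 2.95 on the log2 scale, the largest of this list, depends on the pseudocount. GHR had 0.77, 0.68 and 0.65 FPKM in 231BR, and in MDA-MB-231 it was listed at 0 in replicates 1 and 3 and at 0.01 in replicate 2. PRLR, the prolactin receptor, is likewise named after its values were seen. It was counted among the receptors called lower, but it passed the filter only through its MDA-MB-231 libraries. Such a gene can only come out lower, so no p-value is given. GHR and PRLR are both also in the counts over all lists. It was at 0.09 ± 0.02 FPKM in 231BR and 0.32 ± 0.03 in MDA-MB-231 (SD, n = 3 each). Its log2 fold change of -1.15 also depends on the pseudocount.

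Among the receptors of the gp130 and interferon type, 5 of 14 tested were called higher and 6 lower. The shares over all tested genes were 44.4% and 32.9%. The median of these receptors was -0.10. IL6ST, which encodes gp130 itself, was at 40.7 ± 0.401 FPKM in 231BR and 71.8 ± 4.99 in MDA-MB-231 (log2 fold change -0.82, limma adjusted p = 6.7e-08), and IL6R was lower at -1.07. OSMR, the oncostatin M chain that pairs with gp130, was higher at 26.0 ± 0.426 against 11.7 ± 0.731 FPKM (log2 fold change 1.14, limma adjusted p = 7.7e-09). IL27RA was higher at 1.06.

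The ligands had the lowest median of the lists, -1.49. Of 10 tested, 6 were called lower and 4 higher, against 32.9% and 44.4% of all tested genes. IL6 was at 0.33, 0.35 and 0.21 FPKM in 231BR and 4.73, 4.64 and 4.95 in MDA-MB-231 (log2 fold change -3.64, limma adjusted p = 6.2e-09). CSF3, which encodes G-CSF, had 2.74, 2.86 and 2.57 FPKM in 231BR and 25.18, 25.84 and 26.68 in MDA-MB-231 (log2 fold change -3.20, limma adjusted p = 1.9e-11). Both were thus lower in every 231BR library. IL7 was higher at 1.03 and CTF1, cardiotrophin 1, at 0.84.

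Of the STAT3 and STAT5 target genes, 13 of 17 tested were called lower and 4 higher, against 32.9% and 44.4% of all tested genes. The median was -0.75, and all 4 with an absolute log2 fold change above 1 were lower. VEGFA, an angiogenic growth factor with many other inputs, had 12.45, 12.05 and 13.58 FPKM in 231BR and 54.89, 53.21 and 55.2 in MDA-MB-231 (log2 fold change -2.09). It is in a list that the study drew from these same libraries, so its difference is a description with no p-value. BCL3, a nuclear regulator of NF-κB, was at 0.977 ± 0.115 against 6.23 ± 0.489 FPKM (log2 fold change -2.56, limma adjusted p = 5.8e-09). CCND1, which encodes cyclin D1, was higher at 237 ± 1.57 against 183 ± 0.573 FPKM (log2 fold change 0.38), and JUNB was higher at 0.43. The target genes have many regulators besides STATs.

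**Figure D5:**
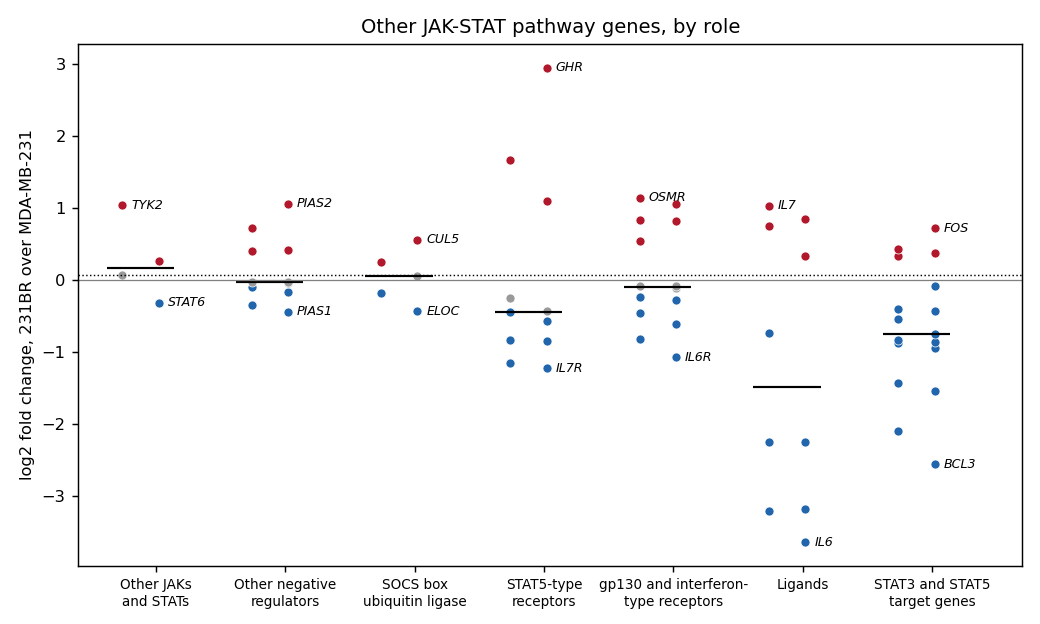
Log2 fold change, 231BR against MDA-MB-231, of every tested gene of the pathway lists, with 1 point per gene (red called higher, blue called lower, grey neither), a line at the median of each list and a dotted line at the median of all genes tested, 0.08. The ligands, with a median of -1.49, and the target genes, with -0.75, lie lowest.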

How the data were processed

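Poly(A) RNA was sequenced as paired ends on a BGISEQ-500. Per the submitters' processing notes the tools were HISAT2 2.0.4 and Bowtie2 2.2.5 with GRCh38.p12; the program that gave FPKM is not given in the sources used here. The deposited unit is FPKM per gene, made by the authors and normalized for transcript length and mapped fragments. No counts were used, so the depth is unknown and the count test of the study could not be run.

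Genes with a mean of at least 0.1 FPKM over the 6 libraries were kept (13465), and limma 3.58.1 (R 4.3.3; lmFit, eBayes with trend) was run on log2(FPKM + 0.1) with Benjamini-Hochberg adjustment. Ratios were tested by exact two-sided permutation. Python 3.11.15, pandas 2.3.3 and matplotlib 3.10.9 were used for the rest. The fit was tested on simulated data with independent normal noise. There 192 of 200 changed genes were recovered and 8 of 13119 unchanged genes were called. The changed genes were not drawn from low ones and were far fewer than the genes called in the data. The simulation thus checks that the fit runs correctly and does not measure the error of the calls given here.

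Groups came from the sample titles. All 10 members were named. From each list, the 2 largest called increases and decreases with a mean of at least 1 FPKM in either line were named, with every SOCS box ligase gene, the neighbours of SOCS2 and the 3 nearest profiles. Members and lists were chosen with earlier results of these data known. Positions are from GENCODE 29. Alternatives were other pseudocounts, filters and scalings, eBayes without trend, a replicate block and leaving out each library.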

Additional observations from a re-analysis of the deposited data

How the results depend on the processing

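No result changed direction past its threshold under the alternatives run. The number of pathway genes called with an absolute log2 fold change above 1 fell from 20 to 9 with a pseudocount of 1, which shrinks low genes by construction, and the difference in the share of SOCS2 rose from 28.9 to 43.7 percentage points when the sum held only the 5 members of the family. SOCS2 ranged from 3.14 to 3.73 on the log2 scale, STAT5A from 1.68 to 2.30, STAT5B from 0.54 to 0.69 and JAK1 from -0.49 to -0.41. SOCS6 ranged from -0.51 to -0.19. Among the members and the pathway genes named by rule, the calls of SOCS1, SOCS3, JAK2 and STAT2 changed, with values given above, and the cause was not tested. Over all alternatives the pathway genes called higher numbered 18 (quantile normalization) to 27 (no filter), and those called lower 35 (mean of at least 1 FPKM) to 43 (median of ratios). Leaving out each library in turn left 4 members called higher and 2 to 4 called lower. Of the uncalled members, CISH ranged from -0.54 to 0.02 and STAT3 from -0.06 to 0.03. Scaling moved the median of all tested genes from 0.08 to 0.02 (median of ratios) or -0.06 (quantile).

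The deviations of libraries with the same replicate number had correlations of 0.087, -0.040 and -0.106 over 11124 genes. Those of libraries with different numbers ranged from -0.154 to 0.183, so no pairing by number was seen. Deviations within a line are tied to each other, so these few values cannot exclude a pairing. With the replicate block 4 members were called higher and 3 lower, and 24 pathway genes higher and 39 lower.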
